A study of Mus musculus with 5 samples.

Results

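*Ccl9*, *Ccl12* and *Ccl24*, which encode secreted CC chemokines, were examined in dendritic cells cultured from the bone marrow (BMDCs) of *Irf8*-overexpressing (*Irf8*-OE) and control mice. They are 3 of the 1355 genes in the authors' deposited list of differentially expressed genes and were chosen by name from that list, which was itself selected on the same 5 samples. Their differences between *Irf8*-OE and control are therefore given as a description, with errors and without p-values, and a statement that a listed gene passed a threshold in limma describes the list and is no independent test of it. The RNA-seq data hold 3 samples of the *Irf8*-OE group and 2 of the control group. The *Irf8*-OE mice (*Irf8* CAG-LSL *Itgax* Cre) carried an *Irf8*-Flag transgene behind a stop cassette at the H11 locus, which is released by a Cre driven from *Itgax*, the gene of the dendritic cell integrin CD11c. Cells in whose lineage this Cre was never active would not be recombined, and BMDC cultures can hold several myeloid cell types. Controls are *Irf8* CAG-LSL without Cre in the study's text and wild type in the sample labels. All mice were on the C57BL/6 background, 8 weeks old and labelled male. In all 5 samples non-adherent marrow cells had been grown in 5 ng/ml GM-CSF and 200 ng/ml Flt3L, replated on day 9 and collected on days 15 to 16, a protocol used to make CD103+ dendritic cells. TNF-alpha, at 20 ng/ml, is given by the labels for all samples, whereas the study's methods say only that cells could be stimulated with it. Nothing states that the samples of a group came from separate animals. Every standard error below therefore rests on the spread between these samples, which may be technical. For each gene that spread is moderated by the spread of the other listed genes.

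CC chemokines are small secreted proteins, named for the adjacent pair of cysteines near their amino end, that attract leukocytes through G protein-coupled receptors. CCL9 acts through CCR1 and is made by myeloid cells and osteoclasts. CCL12 is a mouse ligand of CCR2, the receptor that brings monocytes out of the marrow. CCL24, or eotaxin-2, acts through CCR3 on eosinophils and basophils and is a product of macrophages exposed to IL-4. IRF8 is a transcription factor needed for the development of type 1 conventional dendritic cells and of monocytes.

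The cysteine pair that defines the family lies at codons 33 and 34 of *Ccl12* and *Ccl24*, and at codons 57 and 58 of *Ccl9*. The coding stretches around it are shown to place the genes beside each other, with the codons of the pair in capitals. They were read 5' to 3' on the coding strand from the GENCODE vM21 transcripts (GRCm38), each spans 1 exon junction, and each has 54 bases.
Ccl9: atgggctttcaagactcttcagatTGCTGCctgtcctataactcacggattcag
Ccl12: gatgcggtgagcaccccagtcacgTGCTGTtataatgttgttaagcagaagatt
Ccl24: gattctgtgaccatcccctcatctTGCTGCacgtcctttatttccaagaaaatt
Compared position by position, *Ccl12* and *Ccl24* shared 30 of the 54 bases, *Ccl9* and *Ccl24* shared 24, and *Ccl9* and *Ccl12* shared 13. The *Ccl9* stretch lies in exons 2 and 3 of a 4-exon transcript of 3006 bases, and those of the other genes lie in exons 1 and 2 of 3-exon transcripts of 537 bases (*Ccl12*) and 1295 bases (*Ccl24*).

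The members shared few stretches of sequence with other genes. None of the 534 windows of 50 bases in *Ccl12* transcripts, and none of the 1291 in *Ccl24* transcripts, occurred in a transcript of another gene (0 and 0). For *Ccl9* 59 of 2996 windows occurred in transcripts of other genes, 0 of them chemokine ligands. No annotated gene overlapped any of the 3 genes in GENCODE vM21.

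*Ccl9* (ENSMUSG00000019122) lies on the minus strand of chromosome 11, at chr11:83572919-83578636 of GRCm38. *Ccl12* (ENSMUSG00000035352) is on the plus strand of the same chromosome, at chr11:82101845-82103400, 1469518 bases away. That chromosome holds 11 CC ligand genes between 82035571 and 83664683. *Ccl24* (ENSMUSG00000004814) is on the minus strand of chromosome 5, at chr5:135569937-135573049, where *Ccl26* is the only other CC ligand gene, 6367 bases away. The genes nearest to the members within these clusters, *Ccl6* at 9245 bases from *Ccl9* and *Ccl8* at 11784 bases from *Ccl12*, are not in the deposited list and are not analysed here.

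Of the 24 CC ligand genes looked for, *Ccl9*, *Ccl12* and *Ccl24* were the 3 present in the list. The values are normalized counts, in which a gene's reads were scaled to make libraries comparable but not for its length. Every value was a whole multiple of 1 step per sample, within 0.01 reads, so the reads behind it could be recovered. The listed genes held 646123 to 1062127 reads in a sample, a total that is not the library's depth. *Irf8* itself had 2835 and 2747 normalized counts in the controls and 7141, 6519 and 6021 in *Irf8*-OE, a log2 fold change of 1.23 that was 1.75 after quantile normalization and 0.28, short of 1, with median-of-ratios size factors. The sex-linked genes went against the label of male mice in the *Irf8*-OE samples: *Xist* had 10772 to 13476 normalized counts there and at most 1.12 in the controls, and *Ddx3y*, *Eif2s3y*, *Kdm5d* and *Uty* had 0 reads there. Sex by these genes and genotype separate the samples in the same way, so they cannot be told apart in any value below.

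*Ccl9* was abundant in every sample and lower in *Irf8*-OE. It had 23364 and 23228 normalized counts in the 2 control samples, and 9827, 11792 and 12433 in the 3 *Irf8*-OE samples. The groups did not overlap. Since the list was selected on this contrast, nothing is read from separate groups for this gene or any gene below. The controls lay much closer to each other than the *Irf8*-OE samples did. The mean was 23296 ± 95.8 (SD, n = 2) in the controls and 11350.4 ± 1358 (SD, n = 3) in *Irf8*-OE, 2.05-fold higher in the controls. On the scale of log2(normalized counts + 1), limma gave a log2 fold change of -1.04 (standard error 0.10, 95% interval -1.28 to -0.81). This sits near the limit of 1, in absolute log2 fold change, that chose the genes: 75 of the 1355 listed genes (5.54%) had a smaller change, the smallest change past the threshold was 1.0001 and the largest short of it was 0.997. Without the first *Irf8*-OE sample the log2 fold change was -0.94, short of the threshold. After quantile normalization, which gives all samples the same distribution of values over the listed genes, it was -0.061 (standard error 0.062), within 1 standard error of 0, whereas median-of-ratios size factors computed on the listed genes gave -1.996.

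*Ccl12*, the CCR2 ligand, was low in the controls and higher in *Irf8*-OE. It had 24.7 and 24.9 normalized counts in the 2 control samples, and 149, 169 and 187 in the 3 *Irf8*-OE samples. The groups lay far apart, and every *Irf8*-OE sample exceeded both controls. The means were 24.8 ± 0.159 (SD, n = 2) in the controls and 168 ± 19.1 (SD, n = 3) in *Irf8*-OE, a 6.77-fold difference, with a log2 fold change of 2.70 (standard error 0.17, 95% interval 2.30 to 3.11). The control values rest on 22 and 26 reads, so that the first control has a counting interval of 15.5 to 37.4 normalized counts (exact Poisson, 95%, counting error only) and the second 16.3 to 36.6. The *Irf8*-OE values rest on 155, 181 and 186 reads, and their lowest counting limit was 126, above the controls. A fit of the recovered reads with DESeq2 gave a log2 fold change of 2.76 with a larger standard error, 0.30. The limma interval may therefore be too narrow. Of all listed genes 79.8% had a smaller change in either direction.

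*Ccl24*, the CCR3 ligand, was modest in the controls and lower in *Irf8*-OE. It had 70.8 and 78.7 normalized counts in the 2 control samples, and 15.3, 16.8 and 15.1 in the 3 *Irf8*-OE samples. Every *Irf8*-OE sample was below both controls. The means were 74.7 ± 5.58 (SD, n = 2) and 15.7 ± 0.937 (SD, n = 3), 4.75-fold higher in the controls, with a log2 fold change of -2.18 (standard error 0.22, 95% interval -2.71 to -1.64). Counting limits the precision of the low group: 16, 18 and 15 reads lay behind the *Irf8*-OE values and 63 and 82 behind the controls. The highest counting limit in *Irf8*-OE was 26.6 normalized counts and the lowest in the controls 54.4. DESeq2 on the recovered reads gave -2.25 with a larger standard error, 0.41, so the limma interval may be too narrow here too. Of all listed genes 67.5% had a smaller change.

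**Figure D1:**
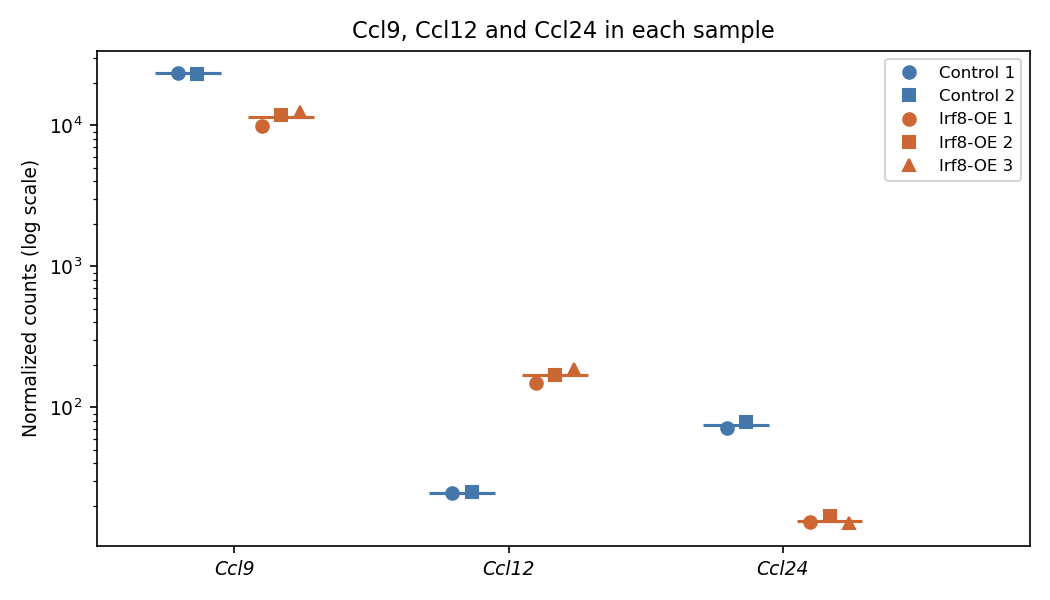
Normalized counts (log scale) of *Ccl9*, *Ccl12* and *Ccl24* in each of the 2 control samples (blue) and 3 *Irf8*-OE samples (orange), with the group mean as a bar. *Ccl9* lies between 9827 and 23364 in all samples, *Ccl12* is higher in *Irf8*-OE (149 to 187 against 24.7 to 24.9), and *Ccl24* is lower (15.1 to 16.8 against 70.8 to 78.7).

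With thresholds of 0.05 for the adjusted p and 1 for the absolute log2 fold change in limma, over all 1355 listed genes, the 3 members were called, 1 as higher and 2 as lower in *Irf8*-OE. The background for this count is that 99.1% of the listed genes passed, 58.1% higher and 41.0% lower, since the list was selected on this contrast. Nothing is read from the members' count for that reason. The median log2 fold change over the listed genes was 1.14, so relative to it *Ccl9* stood at -2.19, *Ccl12* at 1.56 and *Ccl24* at -3.32. Under quantile normalization that median moved to 0.79 and the members stood at -0.85, 1.53 and -3.64 relative to it, and under median-of-ratios size factors the median moved to 0.20 and they stood at -2.19, 1.58 and -3.30. *Ccl12* and *Ccl24* had the same direction under the 3 scalings, whereas *Ccl9* lay near 0 after quantile normalization. That scaling keeps only a gene's rank within each sample, and *Ccl9* was among the most abundant listed genes in both groups. Such a gene can come out near 0 despite a change in counts, as *Cpa3* did (-3.00 to 0.00). The value of *Ccl9* there therefore does not settle its direction. *Ccl9* and *Ccl24* also stayed below the median, but genes listed as lower lie below a positive median by selection. Nothing is read from that.

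**Figure D2:**
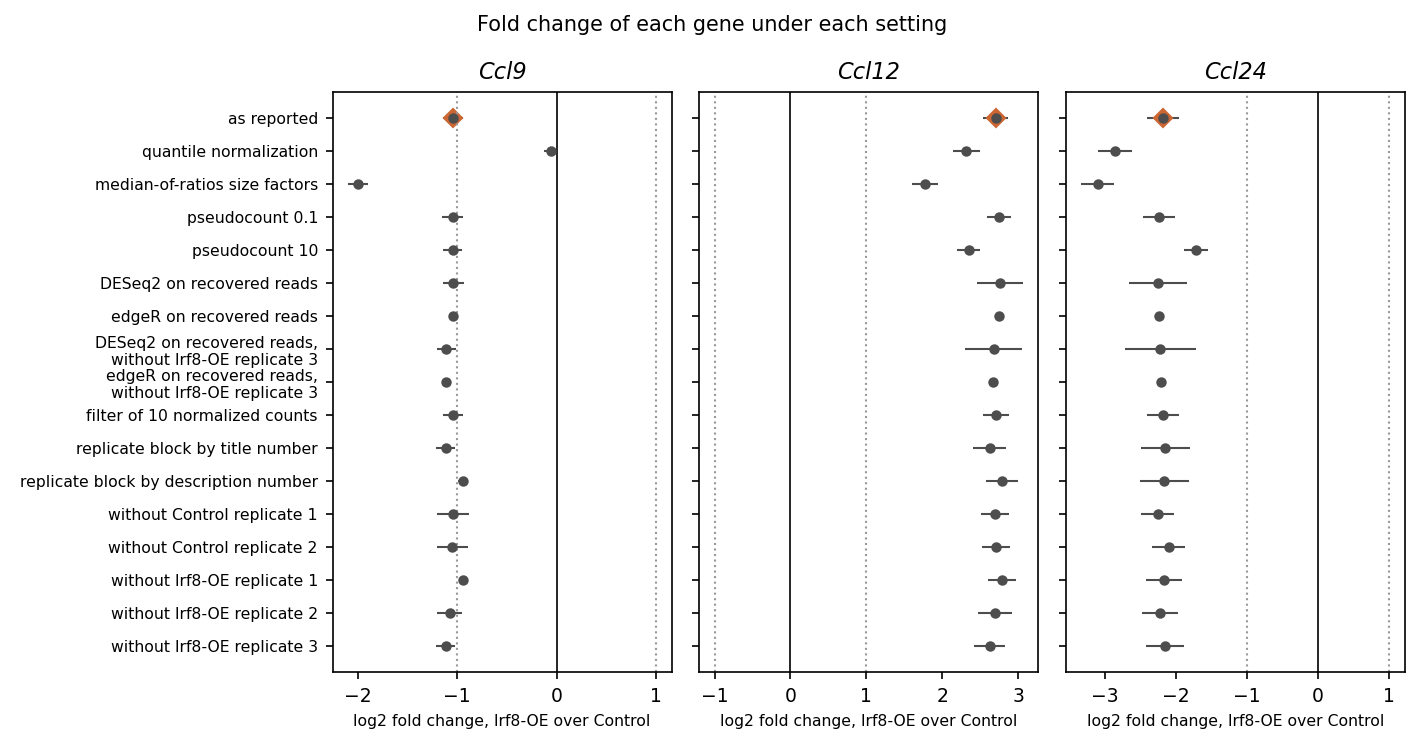
Log2 fold change of *Irf8*-OE over control for each gene under the reported setting (diamond) and 16 alternatives, with bars of 1 standard error where the method gives one and dotted lines at the threshold of 1. *Ccl12* stays between 1.77 and 2.79 and *Ccl24* between -3.10 and -1.72, whereas *Ccl9* ranges from -1.996 to -0.061 and falls short of the threshold in 3 of the 16 alternatives. Among these, the replicate block and the left-out sample give the same estimate.

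To compare levels between the genes, normalized counts were divided by gene length in kb (3.045 for *Ccl9*, 0.537 for *Ccl12* and 1.295 for *Ccl24*). *Ccl9* was the highest of the 3 genes per kb in both groups, with 7651 ± 31.5 (SD, n = 2) in the controls and 3728 ± 446 (SD, n = 3) in *Irf8*-OE. It ranked 6 of 1355 listed genes per kb in the controls and 9 in *Irf8*-OE. The cytokine receptor subunit gene *Csf2rb2* stood next above it in both groups, at 7986 and 3753 per kb, and in *Irf8*-OE that gap is smaller than the SD of *Ccl9*.

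The other two genes changed places per kb. In the controls *Ccl24* was slightly above *Ccl12*, with 57.7 ± 4.31 per kb (rank 422) against 46.3 ± 0.296 (rank 468). The ratio of *Ccl24* to *Ccl12* per kb was 1.19 and 1.31 in the 2 controls, a gap that the counting intervals of these low reads do not separate. In *Irf8*-OE *Ccl12* had 313 ± 35.6 per kb (rank 142) and *Ccl24* 12.2 ± 0.723 (rank 907). The ratio of *Ccl12* to *Ccl24* per kb was then 23.4, 24.2 and 29.9 in the 3 samples, so the order was the same in each of them.

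*Ccl9* therefore made up less of the summed level of the 3 genes per kb in *Irf8*-OE, with 91.8%, 92.2% and 91.9% against 98.7% and 98.6% in the controls. The ratio of *Ccl9* to *Ccl12* per kb was 167 and 164 in the controls and 11.7, 12.3 and 11.7 in *Irf8*-OE. The values in *Irf8*-OE lay close to each other although both genes varied among the *Irf8*-OE samples. Counting alone gives *Ccl12* an error of 8.03%, 7.43% and 7.33% in these samples, and of 21.3% and 19.6% in the controls. Nothing is read from how close the ratios lie. The ratio of *Ccl9* to *Ccl24* per kb went the other way, from 140 and 126 in the controls to 273, 298 and 351 in *Irf8*-OE.

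The spread within groups differed between the genes. Among the *Irf8*-OE samples *Ccl9* had a coefficient of variation of 11.96%, where counting alone gives 0.922%, and *Ccl12* one of 11.4%, where counting gives 7.58%. *Ccl24* varied by 5.95% there, less than the 24.7% that counting gives at its depth. Between the 2 controls the variation of all 3 genes was below what counting alone gives, at 0.411% against 0.667% for *Ccl9*, 0.641% against 20.4% for *Ccl12* and 7.46% against 11.7% for *Ccl24*. A control SD from 2 samples, such as the 0.159 of *Ccl12*, is thus smaller than counting error alone.

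*Ccl9* and *Ccl12* were both lowest in the first and highest in the third *Irf8*-OE sample, at 1.27-fold and 1.26-fold between them. *Ccl24* had a ratio of 0.982 between the same samples. Other chemokine ligands had the same order: 8 of the 12 listed ligands (66.7%) were lowest in the first and highest in the third sample, against 332 of the 1355 listed genes (24.5%). These 8 were *Ccl9*, *Ccl12*, *Cxcl1*, *Cxcl2*, *Pf4*, *Cxcl5*, *Ppbp* and *Cxcl9*. Of these *Cxcl9* had the widest ratio between the third and the first sample, 2.10, but it rests on only 22 and 11 reads. The opposite order was found for 1 of the 12, *Cxcl12*, at 0.943. Among the 7 listed macrophage markers 5 had the opposite order, highest in the first and lowest in the third sample, against 20.1% of all listed genes. The ligands' order was also that of all 3 listed feedback genes of TNF and NF-kB, *Nfkbiz*, *Ptgs2* and *Il6*. Of the 19 listed genes of the type I interferon response, 5 (26.3%) had this order and 6 the opposite. These orders are within 1 group of 3 samples and were not tested.

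**Figure D3:**
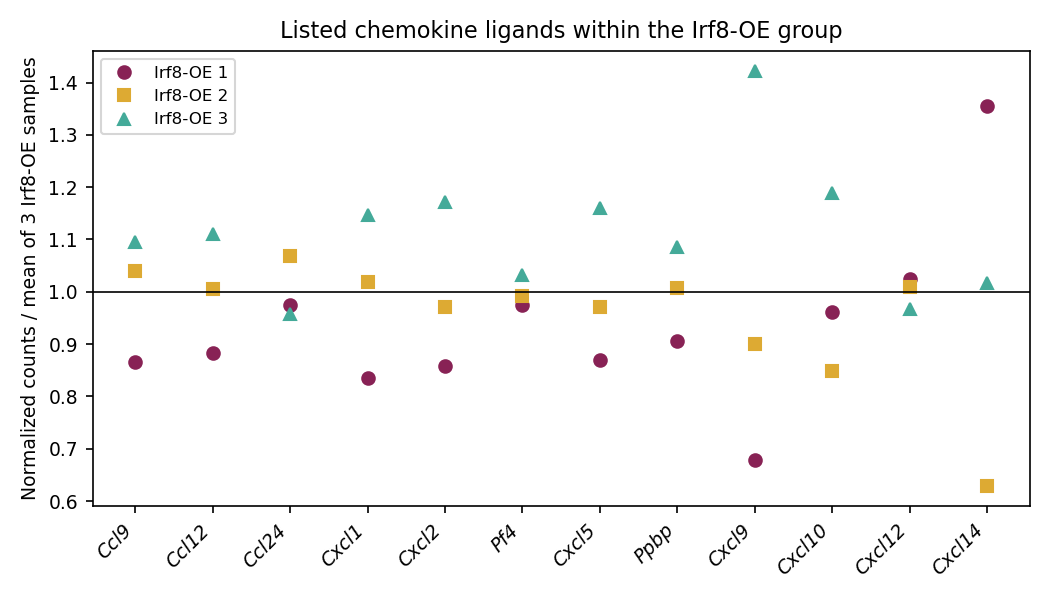
Normalized counts of the 12 listed chemokine ligands in each of the 3 *Irf8*-OE samples, each divided by the mean of the 3. The first sample (circles) lies lowest and the third (triangles) highest for 8 ligands, *Ccl9* and *Ccl12* among them, whereas the 3 values of *Ccl24* lie close to 1.

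The other chemokine ligands in the list, which are CXC ligands and include attractants of neutrophils and lymphocytes, were all higher in *Irf8*-OE. Of 17 looked for, 9 were listed and all 9 passed the thresholds as higher, where 58.1% of all listed genes did. Their median log2 fold change was 2.16 beside 1.14 for all listed genes, and 2.31 with *Cxcl9* set against a floor of 3 reads per library. All 9 lay above 0 under each scaling, with 7 still called after quantile normalization and 6 with median-of-ratios size factors. *Cxcl2*, a neutrophil attractant, had 737 and 748 normalized counts in the controls and 3199, 3615 and 4365 in *Irf8*-OE. The platelet chemokine gene *Pf4* had 1240 and 1118 in the controls and 2442, 2484 and 2583 in *Irf8*-OE. *Cxcl9*, an interferon-gamma-induced ligand of CXCR3, had only 2 and 3 reads in the controls and stood at least 4.98-fold higher in *Irf8*-OE against a floor of 3 reads per library. *Ccl9* and *Ccl24* were thus the 2 lower genes of 12 listed ligands, against 10 higher. Summed over each sample, the CC ligands had 23332 to 23459 normalized counts among the controls against 9990 to 12635 in *Irf8*-OE, of which *Ccl9* is nearly all, and the other ligands had 2530 to 2558 and 8518 to 10519.

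Of the receptors of the members, *Ccr3*, the receptor of CCL24, was listed, and *Ccr1* and *Ccr2*, those of CCL9 and CCL12, were not and are not analysed here. *Ccr3* had 62.9 and 42.2 normalized counts in the controls and 1.92, 22.4 and 8.03 in *Irf8*-OE, a log2 fold change of -2.63 (standard error 0.80). Its groups did not overlap, but the first *Irf8*-OE sample held only 2 reads and the interval runs from -4.53 to -0.73. *Ccr6*, the receptor of CCL20, was higher, with 14.6 and 13.4 in the controls and 43.1, 51.4 and 43.2 in *Irf8*-OE (log2 fold change 1.64, standard error 0.23), and fell short of the threshold after quantile normalization (0.97) and with median-of-ratios size factors (0.73). *Cx3cr1*, the fractalkine receptor, was the 1 listed gene of 9 receptors of other chemokine classes looked for, with 94.4 and 102 in the controls and 322, 340 and 358 in *Irf8*-OE.

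**Figure D4:**
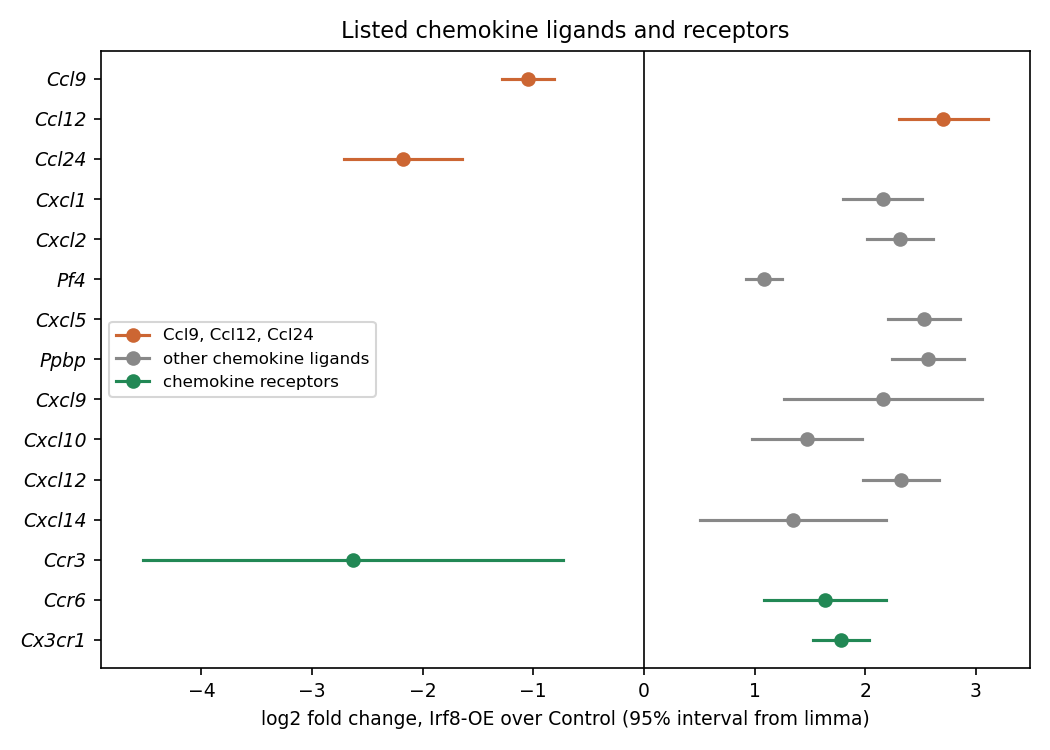
Log2 fold change of *Irf8*-OE over control, with the 95% interval from limma, for the 12 listed chemokine ligands and 3 receptors. *Ccl9* (-1.04) and *Ccl24* (-2.18) are the 2 ligands below 0, and of the receptors shown *Ccr3* (-2.63) lies below 0.

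The genes whose profile over the 5 samples lay nearest to that of each member were found by the Euclidean distance between mean-centred log2(normalized counts + 1) values, among the listed genes with a mean of at least 100 normalized counts. For *Ccl9* these were, of 610 genes, *Cd200r4* (distance 0.0166), *Tgfbr1* (0.0470) and *Lpl* (0.0514), with log2 fold changes of -1.03, -1.05 and -1.07. *Cd200r4*, a receptor of the CD200R family, had 5456 normalized counts in each control and 2317, 2797 and 2924 in *Irf8*-OE, the same order of samples as *Ccl9* within *Irf8*-OE. *Tgfbr1* encodes a TGF-beta receptor and *Lpl* lipoprotein lipase. For *Ccl12* the nearest were *Oasl2* (0.232), an interferon-induced gene, *Ppbp* (0.243), a CXC ligand, and *Mcpt8* (0.264), a basophil protease, with log2 fold changes of 2.67, 2.57 and 2.79. For *Ccl24*, among 611 genes, they were *Gimap9* (0.226), *Rnase6* (0.230) and *Klrb1f* (0.238), with log2 fold changes of -2.14, -2.02 and -2.29. The distances of *Ccl12* and *Ccl24* were several times those of *Ccl9*, whose counting error is the smallest of the 3.

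Near the members on the chromosome, few genes were listed. *E230016K23Rik*, an unnamed gene on the plus strand, starts 3419 bases upstream of *Ccl9* and had 100.0 and 92.1 normalized counts in the controls and 36.4, 55.1 and 32.1 in *Irf8*-OE, a log2 fold change of -1.24 (standard error 0.26). It spans *Ccl6*, which lies on the other strand, and whether the counting used strand is not given in the sources used here, so that reads of these genes cannot be told apart. Also within 1 Mb of *Ccl9* were the Schlafen genes *Slfn4* at 382702 bases (log2 fold change 2.56) and *Slfn5* at 608078 bases (1.07), both higher in *Irf8*-OE. *Slfn5* was also the 1 listed gene within 1 Mb of *Ccl12*. Around *Ccl24* the small heat shock protein gene *Hspb1* at 314869 bases was higher (1.16) and the adaptor gene *Lat2* at 954911 bases was lower (-1.16). Listed genes on either side of *Ccl9* and of *Ccl24* thus differed in direction.

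The stretches just upstream of the pair on chromosome 11 are shown because these genes differ in opposite directions. They are the 250 bases before the start of each gene in GRCm38.p6, from RefSeq's promoter entries, at chr11:83578637-83578886 (minus strand) for *Ccl9* and chr11:82101595-82101844 (plus strand) for *Ccl12*, printed 5' to 3' on the gene's strand with matches to the TATA box core TATAAA on either strand in capitals.
Ccl9: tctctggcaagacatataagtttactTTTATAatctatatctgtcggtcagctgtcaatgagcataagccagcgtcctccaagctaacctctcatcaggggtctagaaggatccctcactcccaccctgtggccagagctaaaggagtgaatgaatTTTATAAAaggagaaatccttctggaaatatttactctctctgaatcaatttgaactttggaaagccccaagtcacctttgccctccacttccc
Ccl12: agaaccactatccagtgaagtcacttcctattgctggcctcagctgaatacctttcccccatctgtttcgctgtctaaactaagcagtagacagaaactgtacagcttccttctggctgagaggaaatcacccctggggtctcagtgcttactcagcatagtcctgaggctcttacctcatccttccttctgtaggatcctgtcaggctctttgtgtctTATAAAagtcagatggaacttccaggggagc
*Ccl12* held 1 such match, 31 to 26 bases before the start, and *Ccl9* held 3, at 224 to 219, 94 to 89 and 92 to 87 bases before it, the last pair overlapping. Of 32851 promoters of this length, 12.4% held TATAAA. Neither gene held a match on either strand to GAAANNGAAA, a core of the interferon-stimulated response element (held by 2.98% of promoters), to GGAANNGAAA, the ETS-IRF composite at which IRF8 can bind with PU.1 (2.30%), or to TTCNNNNGAA, the STAT6-type site (5.85%). This says only that these letters are not in these windows.

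Genes of the pathways around the members were described from lists. Since the deposited genes were selected on this contrast, the counts here and for the cell type markers stand beside 58.1% higher and 41.0% lower over all listed genes, and nothing is read from a list's count of called genes. For type 2 cytokines and alternative activation, in which CCL24 is a known product, 5 of 21 genes were listed, 1 higher and 4 lower, with a median log2 fold change of -1.10 beside 1.14 for all listed genes. *Ccl24* is 1 of the 4, and the others were *Il4ra*, the receptor chain for IL-4 and IL-13 (-1.16, and -0.42 after quantile normalization, short of the threshold), *Il4* (-1.02) and *Il13* (-1.10). *Mgl2*, a lectin of alternatively activated macrophages and dendritic cells, was higher at 1.12, and at 0.17 with median-of-ratios size factors. For the type I interferon response, 19 of 38 genes were listed and all 19 were higher, with a median of 2.01 and above 0 under each scaling, though 9 were called with median-of-ratios size factors. *Oas1a* had a log2 fold change of 1.15 and *Ifi27l2a* one of 1.73. For feedback targets of TNF and NF-kB, 3 of 18 genes were listed: *Nfkbiz* (1.68) and *Ptgs2* (1.27) were higher and *Il6* was lower (-1.10), and their median was 1.27. With median-of-ratios size factors *Nfkbiz* (0.74) and *Ptgs2* (0.32) fell short of the threshold and the median was 0.32.

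Markers of several cell types also differed between the groups, in both directions, and their part in the values above was not tested. In bulk RNA fewer cells of a type and less RNA per cell cannot be told apart. Markers of mast cells and of basophils, which respond to CCL24, went both ways: 12 of 15 were listed, 10 lower and 2 higher (*Mcpt8* and *Prss34*), with a median log2 fold change of -2.05, and their sum was 258668 to 263076 normalized counts among the controls against 39885 to 44321 in *Irf8*-OE. *Cpa3*, the mast cell carboxypeptidase gene, had a log2 fold change of -3.00 and is the most abundant listed gene, so that quantile normalization sets it to 0.00, and *Tpsb2*, a tryptase gene, had -2.58. The 2 higher genes encode basophil proteases: *Prss34* had 138 and 96.9 normalized counts in the controls and 1575, 1423 and 1360 in *Irf8*-OE, and *Mcpt8* had 167 and 188 in the controls and 1202, 1277 and 1220 in *Irf8*-OE. Without *Cpa3* the sums were 83534 to 83603 and 19613 to 20035. Of 9 eosinophil markers 5 were listed, 4 lower and 1 higher, with a median of -1.78 and sums of 1085 to 1201 among the controls against 427 to 458 in *Irf8*-OE. *Siglecf*, a lectin of eosinophils, had a log2 fold change of -1.78 and *Ear6*, an eosinophil ribonuclease, -1.08, whereas the eosinophil peroxidase gene *Epx* had 0 reads in both controls and stood at least 29.2-fold higher in *Irf8*-OE.

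Macrophage and monocyte markers, of cells that can make these chemokines, went both ways. All 7 of the listed macrophage markers, of 17, were higher, with a median log2 fold change of 2.46 and sums of 4616 to 4799 normalized counts among the controls against 22979 to 27752 in *Irf8*-OE. The complement genes *C1qb* and *C1qc* had log2 fold changes of 2.19 and 2.46. Of 8 monocyte markers 4 were listed, 2 higher and 2 lower, with a median of -0.38 and sums of 24826 to 25107 among the controls against 8282 to 8398 in *Irf8*-OE. Coagulation factor gene *F13a1*, which makes up most of that sum, had -2.45 and *Ly6c2* had 1.69. Without *F13a1* the sums were 4509 to 4736 and 4558 to 4697, which overlap. Of 12 neutrophil markers 4 were listed, 3 higher and 1 lower, with a median of 1.27 and sums of 405 to 488 and 1637 to 1681. The lower one, *Ly6g*, went against the direction of the sums. It had 175 and 154 normalized counts in the controls and 6.71, 10.3 and 12.1 in *Irf8*-OE.

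Dendritic cell markers were listed for 5 of 19 genes, 3 higher and 2 lower, with a median log2 fold change of 1.61. Their sums were 14004 to 14551 among the controls against 16314 to 16994 in *Irf8*-OE. *Itgae*, the gene of CD103, had 50.6 and 52.8 normalized counts in the controls and 164, 144 and 178 in *Irf8*-OE. *Fscn1*, an actin bundler of mature dendritic cells, had a log2 fold change of 1.61, and *Cd24a* had -1.38. With median-of-ratios size factors *Itgae* (0.68) and *Fscn1* (0.66) fell short of the threshold and the median of the list was 0.66. *Itgax*, *Batf3*, *Clec9a* and *Xcr1* were not listed and are not analysed here. The list holds only genes that differed between the groups, so these markers do not test the label of the culture. Markers of stromal and B lineage cells were listed as well. All 8 of the listed stromal markers (of 13) were higher, with a median of 2.13 and sums of 3039 to 3092 among the controls against 12046 to 13085 in *Irf8*-OE, and all 6 of the listed B lineage markers (of 12) were higher, with a median of 2.70 and sums of 209 to 249 and 3497 to 3968. Under the other scalings no listed marker of these lists changed sign, except that *Cpa3* went to 0.00 after quantile normalization. With median-of-ratios size factors the markers called as higher were 5 of the 7 macrophage, 5 of the 8 stromal and 4 of the 6 B lineage ones, 0 of the 2 monocyte ones, 1 of the 3 neutrophil ones and 1 of the 3 dendritic cell ones. After quantile normalization these counts were 7, 8, 3, 2, 3 and 3.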

How the data were processed

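RNA-seq of 5 BMDC samples was analysed, with groups from the sample labels. Per the submitters' processing notes the tools were fastp, HISAT2 2.0.5, featureCounts 1.5.0-p3, DESeq2 1.20.0 and edgeR 3.22.5 with mm10. The authors deposited normalized counts, a signal per gene scaled by 1 factor per sample, for the 1355 genes past their thresholds (adjusted p 0.05, absolute log2 fold change 1). The authors' deposited log2 fold changes, p-values and adjusted p-values were not used. Other genes are not analysed here.

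The fit used limma 3.58.1 under R 4.3.3, with no covariates and a trended empirical Bayes step, on log2(normalized counts + 1), with Benjamini-Hochberg adjustment over the 1355 genes. This scale understates the change of low genes. Reads were recovered from the step of each sample and were not used in the reported fit. They gave the counting errors and the floor of 3 reads. They also entered the alternatives with edgeR 4.0.16, DESeq2 1.42.0 and median-of-ratios size factors. The fit was tested on simulated data. Members and gene lists were chosen with earlier results of these data known. Named genes are the members, *Irf8*, sex-linked genes, listed CC ligands and receptors, the 2 most abundant listed genes of each other list, the 3 nearest profiles, neighbours within 1 Mb and neighbours in rank. *Cxcl1*, *Cxcl5*, *Cxcl9*, *Cxcl12*, *Il4*, *Il13*, *Il6*, *Itgae*, *Epx*, *Ly6g*, *Prss34* and *Mcpt8* were named after their values were seen. A gene and a motif covered by these rules are not reported here. Of the listed genes 1354 are in GENCODE vM21 (GRCm38), and 1313 have the same start and end there. Alternatives were quantile normalization, median-of-ratios size factors, pseudocounts of 0.1 and 10, a filter of 10 normalized counts, a replicate block and leaving out each sample.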

Additional observations from a re-analysis of the deposited data

How the results depend on the processing

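Of 16 alternatives, *Ccl12* and *Ccl24* kept their direction and stayed past the threshold in all 16, from 1.77 to 2.79 and from -3.10 to -1.72, and *Ccl9* did so in 13 of 16, from -1.996 to -0.061. *Ccl9* fell short of an absolute log2 fold change of 1 after quantile normalization (-0.061) and with a replicate block by the numbers in the sample descriptions (-0.94), and over the fits that left out 1 sample it ran from -1.11 to -0.94, the latter without the first *Irf8*-OE sample. The block by title numbers gave -1.11. The first *Irf8*-OE sample is alone in its block by description, and the third is alone by title. Each block therefore gives the same estimates as leaving that sample out and is no separate check of them. The labels do not say that the numbers pair samples, and the deviations of same-numbered samples correlated across genes at 0.0275 and 0.0207 by title and at -0.0207 and 0.00893 by description. The block called 1319 genes by title and 1271 by description, against 1343 without it. Between 913 and 1354 of the listed genes were called under the alternatives, but scaling moved the split, from 787 higher and 556 lower to 509 and 522 after quantile normalization (a median shift of -0.36) and to 355 and 558 with median-of-ratios size factors. Both scalings were computed on the listed genes alone, of which 99.1% were called in the reported fit. The cause of these shifts was not tested. Low reads limit *Ccl12* in the controls and *Ccl24* in *Irf8*-OE.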
